A study of Homo sapiens with 6 samples.

Results

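Long noncoding RNAs that are often studied in lung cancer were followed in A549 cells, namely MALAT1, NEAT1, GAS5, SNHG1, TUG1, PVT1, LUCAT1, CYTOR, H19 and UCA1. They were taken by gene name and make up 10 of the 58735 annotated genes in the expression table, or 10 of the 14994 with a long noncoding biotype. A549 is an established human lung adenocarcinoma line. Cells transfected with a plasmid carrying ZBTB16, a BTB zinc finger repressor also known as PLZF, were set against cells transfected with the empty expression vector pcDNA3.1, with 3 bulk RNA libraries in each group. Both groups carry the same label for genotype, WT, and were grown in the same F12K medium. The labels do not state the time after transfection, the share of cells that took up the plasmid, or whether the numbered repeats were separate cultures, so p-values reflect the spread among these libraries alone, and that spread may be technical. In bulk RNA a difference in every cell and a difference in a share of the cells cannot be told apart. The libraries held 15478010, 17033725 and 17319971 reads on genes with ZBTB16 and 16744238, 16528472 and 16515975 with the empty vector.

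ZBTB16 itself checked the labels: it stood at 426, 488 and 456 FPKM (fragments per kilobase of exon, scaled to library depth) in the ZBTB16 libraries and had 0 reads in every empty-vector library. WDHD1, the replication factor named in the series title, stood at 4.65 ± 0.0873 FPKM with ZBTB16 and 5.60 ± 0.0691 FPKM with the empty vector (SD, n = 3 each). It was not called in either test described below (limma adjusted p = 0.167, limma voom adjusted p = 0.0507). The keratins of an epithelial line were abundant, with KRT7, KRT8 and KRT18 at 681, 596 and 498 FPKM with ZBTB16 and 706, 618 and 515 FPKM with the empty vector. Other epithelial and lung adenocarcinoma markers were lower. With ZBTB16, KRT19, CDH1, MUC1 and EPCAM stood at 33.1, 6.66, 2.31 and 1.24 FPKM. With the empty vector they stood at 28.9, 6.87, 2.24 and 1.26 FPKM. NAPSA reached at most 0.572 FPKM in any library, and SFTPB, NKX2-1 and SFTPC at most 0.0561 FPKM. The extraction text in the labels names retinas, but the 7 retina markers summed to at most 0.0235 FPKM with ZBTB16 and 0.0870 FPKM with the empty vector, with 3 of them at 0 throughout. Immune markers summed to between 3.26 and 3.53 FPKM with ZBTB16 and between 3.21 and 3.79 FPKM with the empty vector, whereas fibroblast markers summed to at most 2.46 FPKM with ZBTB16 and 2.48 FPKM with the empty vector and endothelial markers to at most 0.263 FPKM with ZBTB16 and 0.242 FPKM with the empty vector. The immune sum was nearly all CD14, at 3.30 FPKM with ZBTB16 and 3.43 FPKM with the empty vector, with CD3E and MS4A1 at 0 throughout, and the fibroblast sum nearly all COL1A1, at 2.01 FPKM and 2.06 FPKM in that order, with COL1A2 at 0 throughout.

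Long noncoding RNAs work as RNA rather than as templates for protein. MALAT1 and NEAT1 stay in the nucleus, where MALAT1 gathers in splicing speckles and NEAT1 is the scaffold of paraspeckles. GAS5 and SNHG1 are spliced transcripts whose introns carry small nucleolar RNAs (snoRNAs), and their spliced forms are cleared by nonsense-mediated decay. In lung tumours MALAT1, PVT1, LUCAT1, CYTOR, UCA1 and H19 have mostly been described as raised, and GAS5 as lowered.

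The sequences that set these RNAs apart are shown before their levels. MALAT1 and the long form of NEAT1 end, in place of an added poly(A) tail, in a genome-encoded A-rich tract. This tract folds into a protective triple helix with upstream U-rich stretches. The stretch of MALAT1 shown lies at chr11:65506043-65506177 on the plus strand (GRCh38, GENCODE 29 transcript MALAT1-202) and holds the tract, in capitals, with its run of 13 A. The end of the long NEAT1 form, at chr11:65445441-65445540 on the plus strand (NEAT1-202), has the same last 11 bases, in capitals.
MALAT1 A-rich tract: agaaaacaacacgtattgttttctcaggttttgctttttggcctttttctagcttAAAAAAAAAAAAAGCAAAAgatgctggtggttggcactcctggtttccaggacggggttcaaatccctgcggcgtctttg
NEAT1 3-prime end: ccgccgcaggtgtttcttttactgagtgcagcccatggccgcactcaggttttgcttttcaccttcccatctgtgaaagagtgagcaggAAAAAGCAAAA

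Many snoRNA host transcripts open with a run of pyrimidines that ties their translation and stability to growth signalling. The 30 bases at the start of GAS5-214 (chr1:173867960-173867989, minus strand) begin with 6 pyrimidines, in capitals, and 6 of the 29 annotated GAS5 transcripts begin with those 6 bases. The 30 bases at the start of SNHG1-209 (chr11:62855856-62855885, minus strand) begin with 3 pyrimidines, in capitals.
GAS5 start: CTTTTCgaggtaggagtcgactcctgtgag
SNHG1 start: CTCatttttctactgctcgtggtaagtggc

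CYTOR and MIR4435-2HG on chromosome 2 are copies in part of their sequence, and LUCAT1 is a stress-induced RNA, so the promoters of these 3 genes are shown for what they share. Each window runs from 250 bases before to 50 bases after a gene start in RefSeq (GRCh38.p14), is written along the gene's own strand, and lies at chr5:91314353-91314652 on the minus strand for LUCAT1, chr2:87455177-87455476 on the plus strand for CYTOR and chr2:111495112-111495411 on the minus strand for MIR4435-2HG. Capitals mark matches on either strand to TGANTCA, the letters bound by AP-1 factors, and to TGACNNNGC, those of the antioxidant response element bound by NRF2.
LUCAT1 promoter: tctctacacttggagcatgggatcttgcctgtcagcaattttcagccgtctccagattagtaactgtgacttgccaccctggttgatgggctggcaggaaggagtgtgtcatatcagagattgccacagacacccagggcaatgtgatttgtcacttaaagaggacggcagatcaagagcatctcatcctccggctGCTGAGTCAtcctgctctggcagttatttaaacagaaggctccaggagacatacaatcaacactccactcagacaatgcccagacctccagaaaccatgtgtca
CYTOR promoter: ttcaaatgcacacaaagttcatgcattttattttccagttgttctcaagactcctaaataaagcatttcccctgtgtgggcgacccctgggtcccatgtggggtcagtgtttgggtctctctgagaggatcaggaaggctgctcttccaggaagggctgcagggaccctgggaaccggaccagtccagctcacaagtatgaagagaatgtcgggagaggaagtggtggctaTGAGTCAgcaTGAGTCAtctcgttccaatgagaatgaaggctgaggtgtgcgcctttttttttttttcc
MIR4435-2HG promoter: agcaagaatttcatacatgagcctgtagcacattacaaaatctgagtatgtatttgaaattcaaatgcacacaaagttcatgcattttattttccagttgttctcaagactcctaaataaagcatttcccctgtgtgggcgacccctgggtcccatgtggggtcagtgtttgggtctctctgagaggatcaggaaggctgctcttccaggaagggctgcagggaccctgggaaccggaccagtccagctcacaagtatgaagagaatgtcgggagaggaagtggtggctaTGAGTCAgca

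The CYTOR and MIR4435-2HG windows share an identical run of 241 bases. CYTOR had 2 matches to TGANTCA, MIR4435-2HG had 1 and LUCAT1 had 1, which overlapped its single match to TGACNNNGC. The shared run reaches the end of the MIR4435-2HG window and stops before the other CYTOR match. The MIR4435-2HG sequence past its window was not read, so the counts of 2 and 1 cannot be compared. Of the other windows, 1 of the pair at MALAT1 held 2 matches to TGACNNNGC, and those of GAS5, SNHG1, TUG1 and H19 held neither motif. Of 35116 RefSeq promoter windows of the same length 7.71% held TGANTCA, 0.515% held it at least 2 times and 13.3% held TGACNNNGC. A match is a description of letters and not a bound site. RefSeq windows were found for 7 of the 10 RNAs.

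None of the 8 RNAs that were abundant enough to test passed the test between ZBTB16 and the empty vector. Testing used limma on log2(FPKM + 1) over the 12499 genes with a mean of at least 1 FPKM, with Benjamini-Hochberg adjustment, and a gene was called at an adjusted p under 0.05. Of the 8 RNAs, 0 were called in limma and 0 had an unadjusted p under 0.05, and limma voom on the recovered reads also gave 0 calls and 0 at an unadjusted p under 0.05. Over all tested genes 0.072% were called in limma, 10.2% had an unadjusted p under 0.05 and 1.65% were called with voom. Among the 833 tested long noncoding genes 0 were called in limma, against 91 (10.9%) at an unadjusted p under 0.05 and 1 (0.12%) with voom. In sign, 4 of the 8 RNAs were positive and 4 negative, where 51.5% of all tested genes and 55.7% of the tested long noncoding genes were negative. The 8 had a median log2 fold change of -0.0055, against medians of -0.0031 over all tested genes and -0.03 over the tested long noncoding genes. H19 and UCA1 lay below the filter and were described by their reads.

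The differences were small on every RNA tested. The 8 log2 fold changes lay between -0.08 and 0.09, and the 95% intervals together reached from -15.3% to 15.1% of FPKM + 1. An absolute log2 fold change under 0.1 was found for 8 of the 8 RNAs, for 70.7% of all tested genes and for 45.7% of the tested long noncoding genes. Limma adjusted p-values ran from 0.578 for NEAT1 to 0.951 for PVT1. A p that misses the threshold does not show equal levels, and the intervals give the sizes that these libraries leave possible. The plot of fold changes shows both fits side by side.

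**Figure D1:**
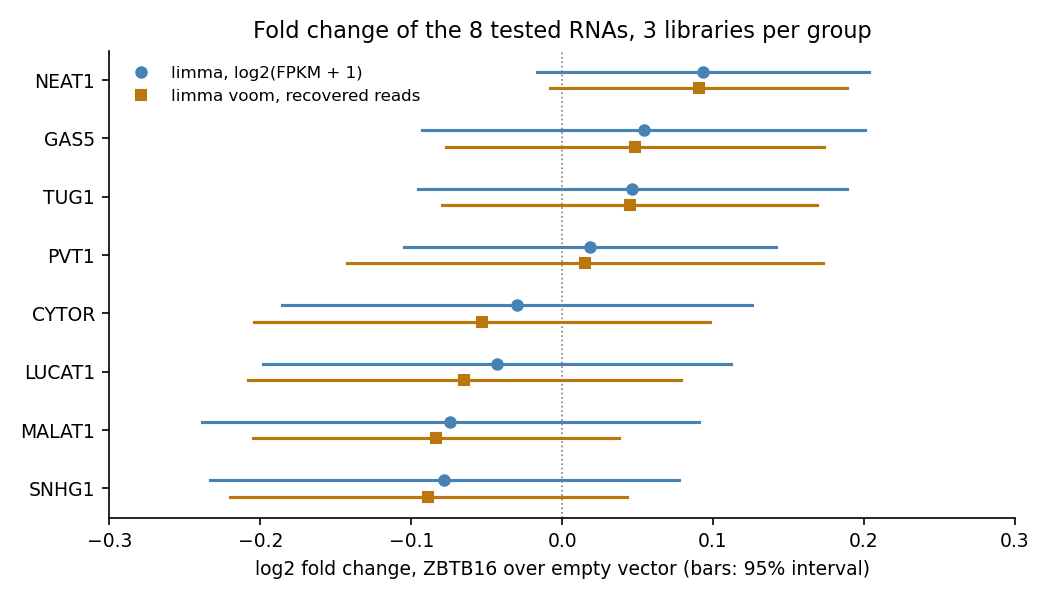
Log2 fold change of the 8 tested RNAs, ZBTB16 over empty vector, from limma on log2(FPKM + 1) (circles) and from limma voom on recovered reads (squares), with 95% intervals as bars and 3 libraries in each group. Every interval crosses 0; NEAT1 is the highest at 0.09 and SNHG1 the lowest at -0.08 in limma.

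MALAT1 (ENSG00000251562, lincRNA, chromosome 11, 65497688 to 65506516, plus strand), the speckle RNA first described in metastasising lung cancer, stood at 30.4, 28.4 and 31.2 FPKM with ZBTB16 and 32.7, 28.3 and 34.2 FPKM with the empty vector. The groups overlapped, and library 2 was the lowest in each. The means were 30.0 ± 1.41 FPKM with ZBTB16 and 31.7 ± 3.08 FPKM with the empty vector (SD, n = 3 each), a log2 fold change of -0.07 (SE 0.072, 95% interval -0.24 to 0.09, limma adjusted p = 0.825). Between 4150 and 5027 reads in each library stood behind these values. Without empty-vector replicate 2 the log2 fold change was -0.15 with an unadjusted p of 0.0356 and a limma adjusted p of 0.522.

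NEAT1 (ENSG00000245532, lincRNA, chromosome 11, 65422774 to 65445540, plus strand), which lies next to MALAT1, was the only one of the 10 whose groups did not overlap. It stood at 23.4, 24.9 and 23.6 FPKM with ZBTB16 and 22.0, 23.3 and 21.9 FPKM with the empty vector. All 3 ZBTB16 libraries were above all 3 empty-vector libraries, the nearest pair being 23.4 with ZBTB16 and 23.3 with the empty vector. Groups lay apart in that direction for 8.12% of all tested genes and 4.2% of the tested long noncoding genes, in the other for 8.1% and 7.2%, and in either for 16.2% and 11.4%. The means were 24.0 ± 0.789 FPKM with ZBTB16 and 22.4 ± 0.806 FPKM with the empty vector (SD, n = 3 each), 6.98% apart. On the log2 scale this was 0.09 (SE 0.048, 95% interval -0.02 to 0.20), which missed the threshold, with limma p-values of 0.0863 unadjusted and 0.578 adjusted. Exact two-sided permutation of the libraries gave 0.1, and no p below 0.1 can be reached with 3 against 3. With 8219 to 9672 reads in each library NEAT1 held the most reads of the 10, over the longest merged exon length.

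**Figure D2:**
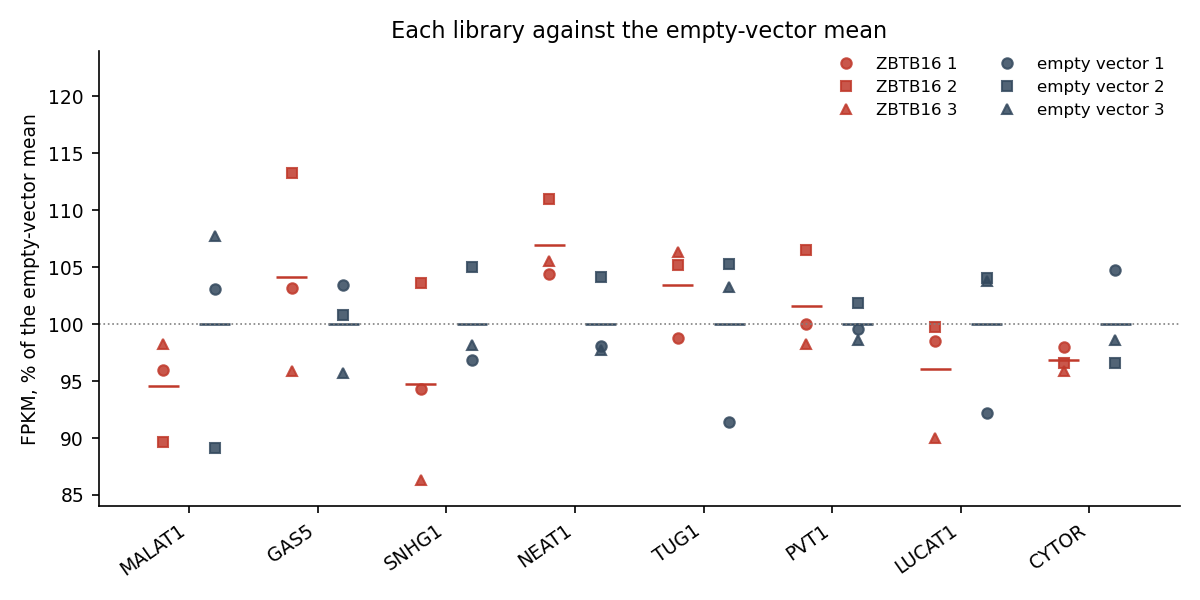
FPKM of the 8 tested RNAs in each of the 6 libraries, as a percentage of the mean of the 3 empty-vector libraries, with the marker shape giving the library number and bars the group means. NEAT1 is the RNA whose ZBTB16 libraries (23.4, 24.9 and 23.6 FPKM) all lie above its empty-vector libraries (22.0, 23.3 and 21.9 FPKM); in the other 7 the groups overlap.

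The proteins that meet NEAT1 and MALAT1 in the nucleus were read from the same fit. Of 28 tested paraspeckle proteins 0 were called, 24 had a negative fold change and 5 (17.9%) had an unadjusted p under 0.05, all of them lower, against 51.5% negative and 10.2% at that p over all tested genes. Their median log2 fold change was -0.06, and their summed level was 876 to 897 FPKM with ZBTB16 and 931 to 938 FPKM with the empty vector. The most abundant were HNRNPA1 at 131 and 140 FPKM, HNRNPK at 122 and 126 FPKM, NONO, one of the core proteins that bind NEAT1, at 95.7 and 98.6 FPKM, and HNRNPUL1 at 83.4 and 90.9 FPKM, each with ZBTB16 and then with the empty vector. SFPQ, the partner of NONO that NEAT1 needs for its stability, stood at 41.9 ± 0.115 FPKM with ZBTB16 and 45.5 ± 0.569 FPKM with the empty vector (SD, n = 3 each), a log2 fold change of -0.11 with a limma adjusted p of 0.338. It is named here after its value was seen, as are the other 3 of the 5, TAF15, RBMX and RBM14, with log2 fold changes of -0.14, -0.13 and -0.15 (limma adjusted p = 0.316, 0.338 and 0.451).

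Splicing speckle proteins showed 0 calls among 19 tested, with 16 negative and a median log2 fold change of -0.04. An unadjusted p under 0.05 was found for 1 (5.26%), which was lower. Over all tested genes 51.5% were negative, 10.2% had such a p and 0.072% were called. Their summed level was 574 to 578 FPKM with ZBTB16 and 592 to 599 FPKM with the empty vector. U2AF2, which recognises the 3-prime splice site, stood at 84.4 and 88.1 FPKM, and the splicing factors SRSF2 and SRSF6 at 54.6 and 58.6 FPKM and at 44.4 and 48.3 FPKM, each with ZBTB16 and then with the empty vector. SRRM2, which helps to build the speckle core, stood at 43.6 and 45.2 FPKM in that order. No call in either list passed over all genes with voom.

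GAS5 (ENSG00000234741, processed transcript, chromosome 1, 173863900 to 173868882, minus strand), a growth-arrest RNA that binds the glucocorticoid receptor, stood at 30.8, 33.8 and 28.6 FPKM with ZBTB16 and 30.8, 30.1 and 28.6 FPKM with the empty vector. The groups overlapped, with ZBTB16 library 2 above the rest. The log2 fold change was 0.05 (SE 0.064, 95% interval -0.09 to 0.20, limma adjusted p = 0.866), and it was -0.01 without ZBTB16 replicate 2. The means were 31.1 ± 2.61 FPKM with ZBTB16 and 29.8 ± 1.16 FPKM with the empty vector (SD, n = 3 each).

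SNHG1 (ENSG00000255717, processed transcript, chromosome 11, 62851988 to 62855914, minus strand), the host of a cluster of box C/D snoRNAs, stood at 24.2, 26.6 and 22.1 FPKM with ZBTB16 and 24.8, 26.9 and 25.2 FPKM with the empty vector. Library 2 was the highest of each group and the groups overlapped. The log2 fold change was -0.08 (SE 0.068, 95% interval -0.23 to 0.08, limma adjusted p = 0.799). Without ZBTB16 replicate 2 it was -0.14 with an unadjusted p of 0.0456 and a limma adjusted p of 0.522, and without ZBTB16 replicate 3 it was -0.02. Each start shown above is that of a single transcript, out of 29 annotated for GAS5 and 25 for SNHG1. The fold changes cover all transcripts of a gene, so they do not bear on a single start. The log2 fold changes of 0.05 for GAS5 and -0.08 for SNHG1 had intervals that both include 0, and the difference between them was not tested.

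The other listed snoRNA hosts gave no call. Of 31 listed, 28 were found under the listed names, and a host annotated under another name is not counted. Of 24 tested, 12 were positive and 12 negative, 0 were called, 1 positive and 1 negative had an unadjusted p under 0.05, and the median log2 fold change was 0.0010. The share at that p was 8.33%, against 10.2% of all tested genes, of which 51.5% were negative and 0.072% called. RACK1, a ribosomal scaffold protein whose introns carry snoRNAs, stood at 159 and 159 FPKM, SNHG5 at 64.2 and 64.6 FPKM, SNHG6 at 41.9 and 41.7 FPKM and SNHG8 at 38.6 and 35.5 FPKM, each with ZBTB16 and then with the empty vector. The host that was higher at that p was ZFAS1, at 23.8 ± 1.88 FPKM with ZBTB16 and 19.9 ± 1.00 FPKM with the empty vector (SD, n = 3 each; log2 fold change 0.25, limma adjusted p = 0.206). The one that was lower was DANCR, at 8.68 ± 0.560 FPKM with ZBTB16 and 10.0 ± 0.564 FPKM with the empty vector (log2 fold change -0.19, limma adjusted p = 0.316). Both were named after their values were seen. Among 16 factors of nonsense-mediated decay, the pathway that degrades spliced GAS5 and SNHG1, 8 were positive and 8 negative, with 0 called and 0 at an unadjusted p under 0.05. The most abundant decay factors were EIF4A3 at 32.3 and 34.1 FPKM, RNPS1 at 22.3 and 22.9 FPKM, SMG5 at 21.2 and 21.3 FPKM and CASC3 at 16.5 and 15.8 FPKM, in the same order.

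The snoRNAs themselves could not be read from this table. All 27 annotated genes whose bases lie wholly inside exons of the 10 RNAs, 22 on the same strand and 5 on the opposite strand, had 0 reads in every library. Among them were SNORD22, SNORD25, SNORD26, SNORD27 and SNORD28 inside SNHG1, MIR675 inside H19 and MIR612 inside NEAT1. Of 12 genes inside the spans that share no exon base, 3 had 0 reads, and the others held 140 reads on the same strand and 144 on the opposite strand in all. The labels do not state how the authors' counting treated overlapping genes, and its part in these zeros was not tested. Of the 25 annotated SNHG1 transcripts 13 are retained introns. SNHG1 shares 15.3% of its merged exon bases with other annotated genes on the same strand, UCA1 11.8% on the opposite strand, and TUG1 6.40% on the same and 7.98% on the opposite strand.

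TUG1 (ENSG00000253352, bidirectional promoter lncRNA, chromosome 22, 30969245 to 30979395, plus strand), a widely expressed RNA linked to Polycomb and p53, stood at 11.1, 11.8 and 11.9 FPKM with ZBTB16 and 10.3, 11.8 and 11.6 FPKM with the empty vector. The empty-vector library 1 was the lowest and the other 5 lay close together. The log2 fold change was 0.05 (SE 0.063, 95% interval -0.10 to 0.19, limma adjusted p = 0.877), and it was -0.01 without empty-vector replicate 1. MORC2, which lies 947 bases away, stood at 7.02 ± 0.325 FPKM with ZBTB16 and 6.84 ± 0.208 FPKM with the empty vector (SD, n = 3 each; limma adjusted p = 0.908).

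PVT1 (ENSG00000249859, lincRNA, chromosome 8, 127794533 to 128101253, plus strand), amplified together with MYC in many tumours, stood at 5.40, 5.75 and 5.30 FPKM with ZBTB16 and 5.37, 5.50 and 5.32 FPKM with the empty vector. The groups overlapped and library 2 was the highest of each. This gave a log2 fold change of 0.02 (SE 0.054, 95% interval -0.10 to 0.14, limma adjusted p = 0.951), and it was -0.01 without ZBTB16 replicate 2. MYC, the growth-promoting transcription factor 53099 bases away, stood at 54.6 ± 1.13 FPKM with ZBTB16 and 53.1 ± 2.65 FPKM with the empty vector (SD, n = 3 each), a log2 fold change of 0.04 with a limma adjusted p of 0.867.

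LUCAT1 (ENSG00000248323, antisense, chromosome 5, 91054834 to 91314547, minus strand), first found in smoke-exposed airway cells and induced by NRF2, stood at 3.08, 3.12 and 2.81 FPKM with ZBTB16 and 2.88, 3.25 and 3.24 FPKM with the empty vector. The groups overlapped, the lowest value being ZBTB16 library 3. Its log2 fold change was -0.04 (SE 0.068, 95% interval -0.20 to 0.11, limma adjusted p = 0.900). A549 cells carry a mutated KEAP1, the protein that holds NRF2 in check, and transcripts of NRF2 targets were abundant in both groups. Of 18 targets 0 were called, 8 were positive and 10 negative, and 2 of the negative had an unadjusted p under 0.05. The share at that p was 11.1%, against 10.2% of all tested genes, of which 51.5% were negative and 0.072% called. The ferritin chains FTL and FTH1 stood at 7916 and 1333 FPKM with ZBTB16 and 7650 and 1258 FPKM with the empty vector. The reductases AKR1B10 and NQO1 stood at 1083 and 419 FPKM with ZBTB16 and 1051 and 413 FPKM with the empty vector.

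CYTOR (ENSG00000222041, lincRNA, chromosome 2, 87454781 to 87636740, plus strand), an RNA linked to cytoskeleton and growth factor signalling, stood at 1.85, 1.83 and 1.81 FPKM with ZBTB16 and 1.98, 1.83 and 1.86 FPKM with the empty vector. The empty-vector library 1 was above the others, and the groups overlapped between 1.83 and 1.85 FPKM. A log2 fold change of -0.03 was found (SE 0.068, 95% interval -0.19 to 0.13, limma adjusted p = 0.934). Its partial copy MIR4435-2HG (ENSG00000172965, chromosome 2, 111036776 to 111523376, minus strand) stood at 1.99, 1.68 and 1.78 FPKM with ZBTB16 and 1.89, 1.83 and 2.15 FPKM with the empty vector, a log2 fold change of -0.07 with a limma adjusted p of 0.856. Reads of the pair are uncertain, since 24.9% of the 50-base stretches of CYTOR transcripts occur in other genes and 16.0% occur in MIR4435-2HG. With the pair summed, the level was 1.82 ± 0.0758 FPKM with ZBTB16 and 1.92 ± 0.0798 FPKM with the empty vector (SD, n = 3 each), a log2 fold change of -0.05 with a limma adjusted p of 0.891. For the other RNAs the share of such stretches also found in transcripts of other annotated genes was 10.0% for TUG1, 8.37% for UCA1, 5.95% for PVT1, 5.46% for SNHG1, 4.20% for MALAT1, 2.07% for H19, 1.60% for NEAT1, 0.609% for LUCAT1 and 0 for GAS5. All these shares, that of CYTOR included, count either strand and also genes annotated over the same bases. Such genes were among the partners of TUG1, UCA1, PVT1, SNHG1, MALAT1, H19, NEAT1 and CYTOR. The shares are therefore not shares of sequence repeated at another place in the genome.

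H19 (ENSG00000130600, processed transcript, chromosome 11, 1995176 to 2001470, minus strand), the imprinted fetal RNA that carries miR-675, had few reads and, with the empty vector, the widest relative spread of the 10, at a coefficient of variation of 69.2%, against 12.3% with ZBTB16. It had 12, 17 and 16 reads with ZBTB16 and 45, 27 and 8 reads with the empty vector, which is 0.268, 0.343 and 0.319 FPKM with ZBTB16 and 0.928, 0.558 and 0.166 FPKM with the empty vector. The ZBTB16 libraries lay within the range of the empty-vector libraries, whose highest value was 5.60 times their lowest. Exact two-sided permutation of the FPKM values gave 0.4, against a smallest possible 0.1. IGF2, the imprinted growth factor that shares an enhancer with H19, stood at 0.0710 FPKM with ZBTB16 and 0.0715 FPKM with the empty vector. In the imprinted gene network 8 genes were tested, 5 positive and 3 negative, with 0 called in limma, against 0.072% of all tested genes. An unadjusted limma p under 0.05 was found for 1 (12.5%), against 10.2% of all tested genes. This was MEG3, which was higher with ZBTB16. It was also the 1 gene of the network called with voom (voom adjusted p = 0.0398), where 1.65% of all tested genes were called. The most abundant genes of the network were PHLDA2 at 45.4 and 41.7 FPKM, PEG10 at 18.8 and 20.4 FPKM, GRB10 at 17.0 and 15.8 FPKM and IGF2R at 14.1 and 13.6 FPKM, each with ZBTB16 and then with the empty vector.

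UCA1 (ENSG00000214049, lincRNA, chromosome 19, 15828206 to 15836326, plus strand), named after bladder cancer, had 8, 8 and 14 reads with ZBTB16 and 5, 9 and 9 reads with the empty vector. These are 0.125, 0.113 and 0.194 FPKM with ZBTB16 and 0.0720, 0.130 and 0.130 FPKM with the empty vector. The groups overlapped, and by exact two-sided permutation p was 0.6. Summed over libraries there were 30 reads with ZBTB16 (95% Poisson interval 20.2 to 42.8) and 23 with the empty vector (14.6 to 34.5). The intervals overlap, so no difference was detected at this depth. These intervals cover counting error only.

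The order of levels was nearly the same in both groups. With ZBTB16 it ran GAS5, MALAT1, SNHG1, NEAT1, TUG1, PVT1, LUCAT1, CYTOR, H19 and UCA1, and the libraries overlapped between GAS5 and MALAT1 and between SNHG1 and NEAT1. With the empty vector MALAT1 stood before GAS5 and only that pair overlapped. Every other neighbour in either order was separate in all 3 libraries. TUG1 lay 2.06 times below NEAT1 with ZBTB16 and 1.99 times with the empty vector, and CYTOR lay 5.90 times above H19 with ZBTB16 and 3.43 times with the empty vector. Over the 6 libraries MALAT1 ranked 1405th among all genes and 9th among long noncoding genes, GAS5 10th, SNHG1 11th, NEAT1 14th, TUG1 35th, PVT1 115th, LUCAT1 225th and CYTOR 429th among long noncoding genes. How well the library kit captured RNAs without an added poly(A) tail, such as MALAT1 and the long NEAT1 form, was not tested. Levels and ranks across genes hold for this preparation alone. The long noncoding genes of highest level were SNHG5, LRRC75A-AS1 at 58.9 and 56.3 FPKM, NORAD at 52.7 and 54.4 FPKM, SNHG6 and SNHG8, with ZBTB16 and then the empty vector.

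**Figure D3:**
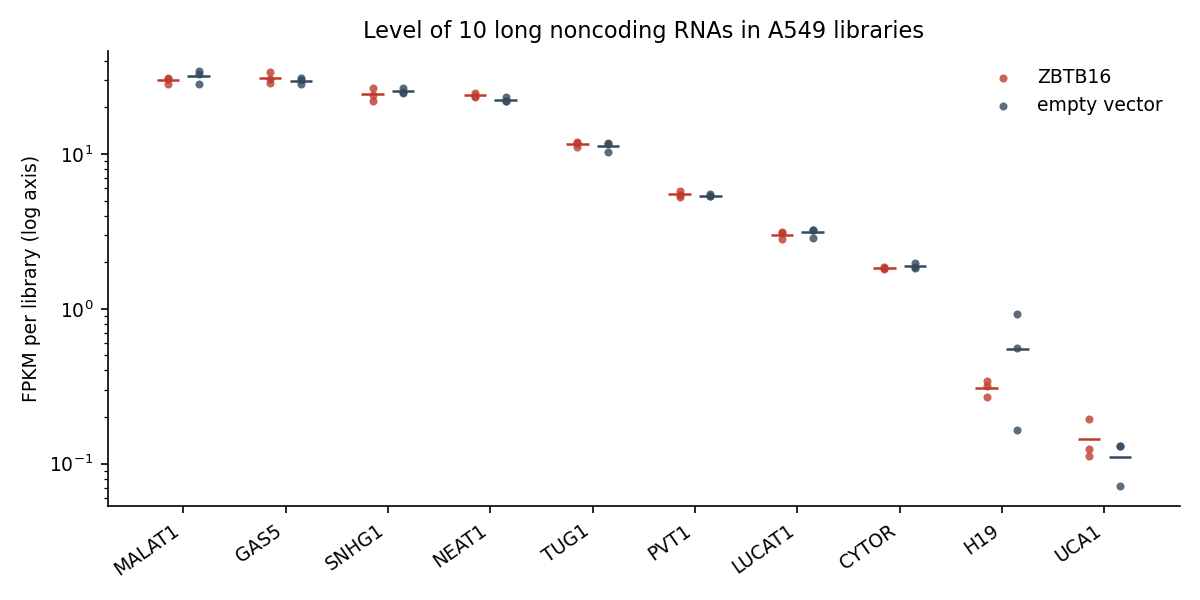
FPKM per library of the 10 RNAs on a log axis, with ZBTB16 left of empty vector, points for the 3 libraries of each group and bars for group means. Levels span the range between about 31 FPKM for GAS5 and MALAT1 and under 0.2 FPKM for UCA1, and H19 is the RNA whose empty-vector libraries lie farthest apart (0.928, 0.558 and 0.166 FPKM).

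Those levels depend on the length each gene was given. The deposited FPKM divide by the merged length of all annotated exons, which for LUCAT1 is 16538 bases against 3066 for its longest transcript, and for CYTOR 17693 against 7512. For MALAT1 the figures are 8829 and 8708 bases and for NEAT1 22767 and 22743. Scaled to the longest annotated transcript, an alternative chosen after seeing the data, GAS5 came first with 66.4 FPKM with ZBTB16 and 63.8 FPKM with the empty vector. PVT1 came to 17.7 and 17.5 FPKM and LUCAT1 to 16.2 and 16.9 FPKM, both above TUG1 at 15.8 and 15.3 FPKM, in the same order of groups. Scaled to the median annotated transcript, likewise chosen after seeing the data, MALAT1 came first with 552 FPKM with ZBTB16 and 583 FPKM with the empty vector, NEAT1 next with 173 and 162 FPKM and GAS5 after it with 164 and 157 FPKM. CYTOR had the widest range, with a median-transcript level 24.1 times the deposited one, against 18.4 times for MALAT1. Ratios of FPKM between the groups do not depend on this length. Together the 10 RNAs took between 0.121% and 0.128% of the reads of each library, of which NEAT1 and MALAT1 held between 63.5% and 66.1%.

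**Figure D4:**
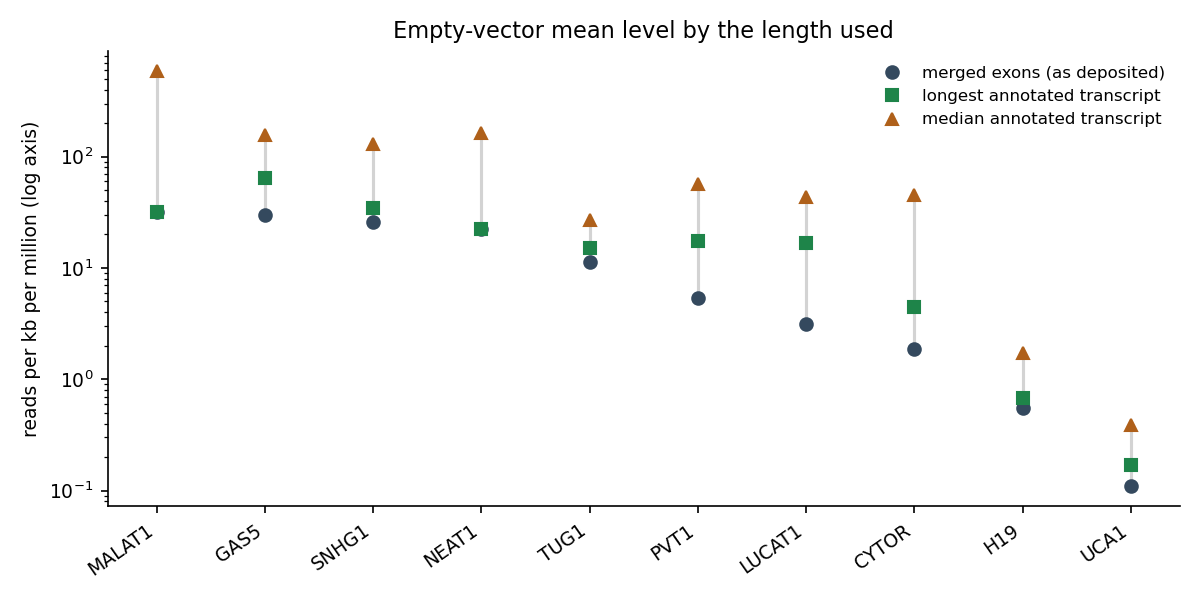
Empty-vector mean level of the 10 RNAs in reads per kilobase, scaled to library depth, on a log axis, divided by the merged exon length as deposited (circles), by the longest annotated transcript (squares) or by the median annotated transcript (triangles). With the longest transcript LUCAT1 moves to 16.9, against 3.12 as deposited, and MALAT1 to 32.2, against 31.7; with the median transcript LUCAT1 moves to 43.8 and MALAT1 to 583.

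The neighbouring genes described here gave 0 calls as well. SLC3A2, an amino acid transporter subunit 188 bases from SNHG1, stood at 125 ± 3.18 FPKM with ZBTB16 and 125 ± 6.96 FPKM with the empty vector (SD, n = 3 each; limma adjusted p = 0.982). FRMD8, beside NEAT1, stood at 33.1 FPKM with ZBTB16 and 34.7 FPKM with the empty vector. MRPL23, a mitochondrial ribosome protein next to H19, stood at 18.4 ± 2.10 FPKM with ZBTB16 and 13.6 ± 1.69 FPKM with the empty vector (SD, n = 3 each), a log2 fold change of 0.41 with a limma adjusted p of 0.206.

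Across other noncoding RNAs named in lung and other cancers 26 were tested, 12 positive and 14 negative, with 0 called in limma. An unadjusted p under 0.05 was found for 3 of the positive and 2 of the negative, 19.2% of the list, against 10.2% of all tested genes and 10.9% of the tested long noncoding genes. MEG3, an imprinted tumour suppressor RNA, was the only tested long noncoding gene called with voom, at 2.46 ± 0.158 FPKM with ZBTB16 and 2.05 ± 0.0275 FPKM with the empty vector (SD, n = 3 each; voom adjusted p = 0.0398, limma adjusted p = 0.382). Of 5 tested p53-linked noncoding genes 4 were positive and 0 called, and 2 (40%), TP53TG1 and LINC-PINT, had a positive fold change with an unadjusted p under 0.05 (limma adjusted p = 0.477 and 0.454), where 10.2% of all tested genes had such a p in either direction. Both were named after their values were seen. NORAD, which sequesters Pumilio proteins, and MIR22HG, the host of miR-22, were the most abundant of them, MIR22HG at 13.0 and 11.9 FPKM with ZBTB16 and the empty vector. The smallest limma p among long noncoding genes belonged to AC099850.3 at 19.9 ± 1.06 FPKM with ZBTB16 and 26.5 ± 1.58 FPKM with the empty vector (SD, n = 3 each), a log2 fold change of -0.40 with a limma adjusted p of 0.0834. IRAIN, an antisense RNA of IGF1R, followed at 1.08 and 2.33 FPKM (limma adjusted p = 0.0834), and AC015922.2 at 6.71 and 9.78 FPKM (limma adjusted p = 0.0992), each with ZBTB16 and then the empty vector.

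Likeness of pattern was read as Pearson's r of log2(FPKM + 1) over the 6 libraries among 125 long noncoding candidates with a mean of at least 5 FPKM, as a description. GAS5 and PVT1 were each other's closest match, with r = 0.90. SNHG1 was closest to LINC01836 (r = 0.98), NEAT1 to LINC00973 (r = 0.95), TUG1 to AC079062.1 (r = 0.87) and MALAT1 to AP000759.1 (r = 0.80). The libraries share depth and scaling, and each r is the highest of many.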

How the data were processed

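Bulk RNA libraries of A549 cells, 3 with a ZBTB16 plasmid and 3 with empty pcDNA3.1, were grouped and numbered by their titles. Per the labels' protocols, RNA was taken with Trizol and a TruSeq RNA kit was used; per the submitters' processing notes, HISAT2 2.0.5 and hg38 were used. The sources used here do not give the counter, its strand setting or its handling of shared reads. FPKM for 58735 genes were made and deposited by the authors. Identifiers, positions and merged exon lengths equalled GENCODE 29 for all 58735 genes. FPKM times length gave whole reads for 100% of values within 0.01 of a read.

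Genes with a mean of at least 1 FPKM were tested with limma 3.58.1 in R 4.3.3 (trended robust prior, no covariate, two-sided) on log2(FPKM + 1), a scale that understates changes of low genes; limma voom on the recovered reads was an alternative. Differences in percent and SDs are of FPKM. The steps were tested on simulated data. Figures used matplotlib 3.10.9.

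The 10 RNAs, gene lists and tests were chosen with earlier results of these data known. The text names all 10, ZBTB16, WDHD1, MIR4435-2HG, MYC and IGF2, up to 4 genes of highest level in each list, up to 3 genes of highest level inside the spans, the 3 long noncoding genes of smallest p, the 5 of highest level, some of the nearest tested genes and the closest patterns; others named were chosen after their values were seen. Most neighbouring genes are not reported here. Alternatives were pseudocounts of 0.1 and 0.5, no filter, a mean of at least 5 FPKM, array weights, a constant prior, quantile, median-ratio and equal-sum scaling, voom, the replicate block, CYTOR summed with its copy, and leaving out each library.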

Additional observations from a re-analysis of the deposited data

How the results depend on the processing

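Of the 8 RNAs, those tested gave 0 calls in each of the 12 other settings run and with each library left out; LUCAT1 and CYTOR were not tested at a mean of at least 5 FPKM, and the summed setting concerned CYTOR alone. In those 12 settings all 87 fold changes kept their sign and the smallest limma adjusted p was 0.488, for NEAT1 with the replicate block. With a library left out 45 of 48 kept their sign and the smallest adjusted p was 0.522. The log2 fold changes then ran between -0.15 and -0.02 for MALAT1, 0.07 and 0.12 for NEAT1, -0.0067 and 0.11 for GAS5, -0.14 and -0.02 for SNHG1, -0.011 and 0.082 for TUG1, -0.011 and 0.039 for PVT1, -0.09 and -0.01 for LUCAT1 and -0.05 and -0.01 for CYTOR. The 3 changes of sign were GAS5 without ZBTB16 replicate 2 (-0.0067), TUG1 without empty-vector replicate 1 (-0.011) and PVT1 without ZBTB16 replicate 2 (-0.011).

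The count of called genes over the whole table depended more on the setting. It was 9 as reported, 1 with no filter, 75 at a mean of at least 5 FPKM, 16 with quantile scaling, 14 with equal-sum scaling, 1 with a constant prior, 32 with array weights, 206 with voom, and between 1 and 6 with a library left out; the cause was not tested. The labels do not state whether same-numbered libraries were handled together. Same-numbered libraries had correlations of 0.067, 0.047 and -0.044 in their deviations from the group means. Differently numbered libraries had correlations between -0.084 and 0.041. These values cannot show whether the numbers mark shared handling. The replicate block gave 15 called genes. Reads were few for H19 and UCA1, at 5 to 45 in a library. For H19 with the empty vector the libraries (45, 27 and 8 reads) also spread more than counting error. Their variance was 12.6 times that of counting alone. The level order depends on the length used.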

Other observations

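Among genes inside the spans of the 10 RNAs that share no exon base with them, those of highest level were MIR1206 and RNU1-106P in introns of PVT1 and AC133644.2, on the opposite strand, in an intron of CYTOR. Their means over the 6 libraries were 4.90, 3.70 and 1.52 FPKM over lengths of 59, 164 and 540 bases, from 29, 61 and 82 reads in all. Reads of the host's intronic RNA and of these genes cannot be told apart at these positions.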
